A study of Sus scrofa with 11 samples.

Results

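Elastic fibres give a large artery its recoil, and their genes were followed here in pig carotid artery. The set holds 10 genes, chosen by name for their known place in the elastic fibre: ELN, FBN1, FBN2, FBLN2, FBLN5, EFEMP2, LOX, LOXL1, MFAP4 and EMILIN1. Each name matched a single row among the 35670 genes of the count table, and all 10 genes passed the filter on low counts. SWNT-SHP1i pigs (Sus scrofa) were infused with a macrophage-directed nanoparticle, named SWNT in the labels, that was loaded with a chemical SHP-1 inhibitor, and control pigs received SWNT without it. Both groups ate a Western diet rich in fat and calories for 12 weeks, and both had a weekly intravenous infusion at 400 nM under general anaesthesia, so the controls carry the SWNT, the diet and the anaesthesia too. Counts from 5 SWNT-SHP1i and 5 SWNT animals were analysed, 1 carotid library per animal. A further SWNT-SHP1i animal, replicate 4, is labelled as having died before harvest and was not analysed here. The labels give no breed, sex or age. The study's stated question was whether the loaded particle works and is safe in porcine atherosclerosis, judged by apoptotic cells, inflammation and anaemia.

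An elastic fibre has a core of cross-linked elastin wrapped in a mantle of microfibrils. Fibrillins build the microfibrils, short fibulins bring tropoelastin to them, and lysyl oxidases join tropoelastin molecules by covalent bonds. In the arterial media the fibres form concentric lamellae laid down mostly by smooth muscle cells early in life, and the adult wall renews them very slowly.

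Total counts were 27593564 to 39413481 in SWNT-SHP1i and 32931527 to 47718854 in SWNT libraries. Markers of contractile smooth muscle, led by ACTA2 and TAGLN, were abundant in all libraries, as an artery should show. Their summed level, per exon length (TPM), was 18026 to 57513 TPM in SWNT-SHP1i and 49821 to 66848 TPM in SWNT. SWNT-SHP1i replicate 6 had the lowest smooth muscle level. It also had the lowest sample weight, 0.118, in a limma-voom fit with quality weights, followed by SWNT-SHP1i replicate 3 at 0.207. In SWNT-SHP1i replicate 3 mitochondrial genes took 8.61% of counts, against 1.16% to 2.97% in the other 9 libraries. Many values below are therefore also given without replicate 6.

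The elastic fibre genes differed widely in level, and elastin stood far above the rest. Set per exon length as TPM, ELN averaged 14358 ± 3951 TPM in SWNT-SHP1i and 14688 ± 3179 TPM in SWNT (SD, n = 5 each). In SWNT it ranked 3 among all genes of the table. MFAP4, which encodes a glycoprotein of the microfibril surface, came next with 2209.8 ± 358 TPM in SWNT-SHP1i and 2522 ± 389 TPM in SWNT. FBLN5 followed with 439.5 ± 159.6 TPM in SWNT-SHP1i and 445.5 ± 120.4 TPM in SWNT. ELN lay above MFAP4, and MFAP4 above FBLN5, in 10 of 10 libraries, with no overlap of their ranges.

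Below FBLN5 the order was LOXL1, EFEMP2, LOX, EMILIN1, FBN1 and FBLN2, with means over all libraries of 276 to 137 TPM and ranges that overlap from each gene to the next. LOXL1 was above EFEMP2 in 6 of 10 libraries, and EMILIN1 above FBN1 in 5 of 10, so these neighbours did not differ beyond their spread. FBN2, the fibrillin best known from development, was far below the rest, with 4.26 ± 2.59 TPM in SWNT-SHP1i and 2.62 ± 0.675 TPM in SWNT. ELN made up 72.2% to 82.6% of the summed TPM of the 10 genes in SWNT-SHP1i libraries and 74.3% to 80.0% in SWNT libraries.

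**Figure D1:**
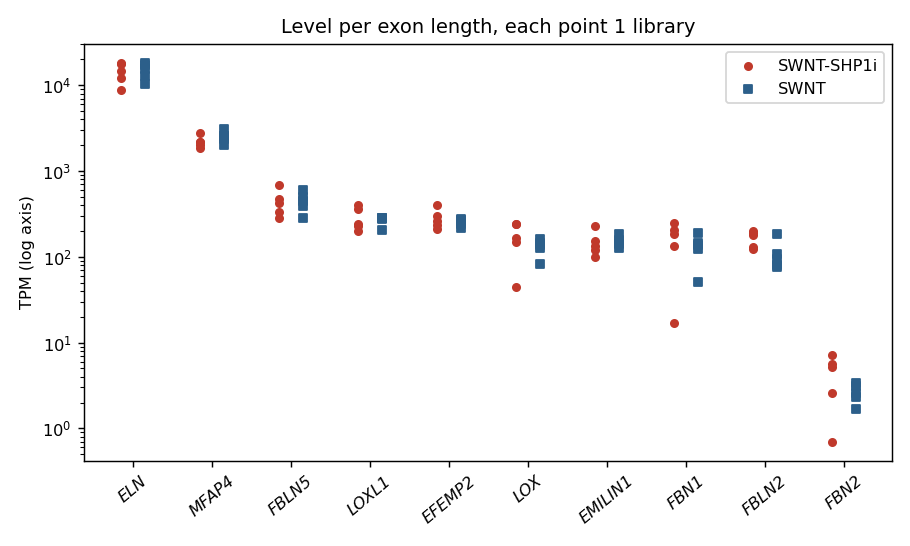
TPM (log axis) of the 10 elastic fibre genes, ordered by mean level, with 1 point per library, SWNT-SHP1i (circles) left of SWNT (squares). ELN stands between 8823 and 18215 TPM and FBN2 at 7.17 TPM or lower, with the libraries of both groups interleaved for most genes.

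None of the elastic fibre genes passed the test of SWNT-SHP1i against SWNT over all genes. In edgeR's quasi-likelihood test 0 of the 10 passed an adjusted p of 0.05, where the background is 0% of 15930 genes, and each of the 10 had an adjusted p = 0.997. At an unadjusted p under 0.05 only FBLN2 passed, 1 of 10, against 4.64% of all genes tested (3.49% higher and 1.15% lower). Over the whole table edgeR had 739 genes at an unadjusted p under 0.05. DESeq2 had 986 and limma-voom 1385, and each called 0 after adjustment. In 9 of the 10 the fitted log2 fold change was positive, against 50.8% of all genes, and their median was 0.31 against 0.006 for all genes tested. Without SWNT-SHP1i replicate 6 the median was 0.078, against -0.013 for all genes tested, and the positive count was 7, and without SWNT-SHP1i replicates 3 and 6 it was 5. The sign also depended on the scale. ELN, FBLN5 and EMILIN1 were positive in the fit with all libraries but had a lower mean TPM in SWNT-SHP1i than in SWNT. For all 10 genes the groups overlapped, and 0.358% of all genes had groups that did not. Each library has its own animal number, and the labels name no litter or batch. In a bulk tissue fewer cells of a type and less RNA per cell cannot be told apart.

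**Figure D2:**
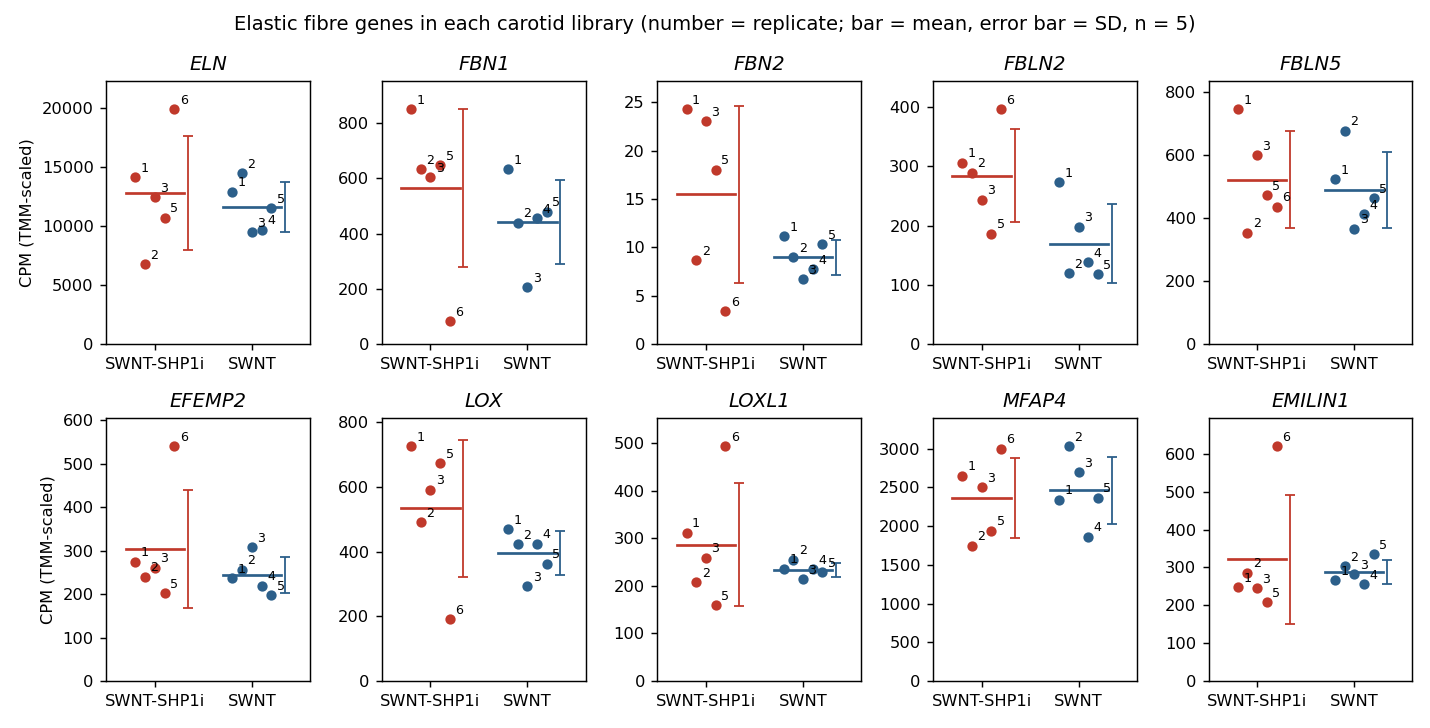
Each panel gives 1 gene as TMM-scaled CPM, with SWNT-SHP1i libraries at the left and SWNT libraries at the right, replicate numbers beside the points, the mean as a bar and the SD as an error bar (n = 5 each). SWNT-SHP1i replicate 6 is the lowest point for FBN1, FBN2 and LOX and the highest for ELN, FBLN2, EFEMP2, LOXL1 and EMILIN1.

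For the core protein the groups lay close together. ELN (ENSSSCG00000025858, Sscrofa11.1 chromosome 3, 11214205 to 11244897, plus strand, 33 exons) encodes tropoelastin, the soluble monomer of elastin. In SWNT-SHP1i replicates 1, 2, 3, 5 and 6 it had 14115, 6784, 12418, 10702 and 19886 CPM (counts scaled by TMM to a common library size), against 12899, 14453, 9455, 9686 and 11506 CPM in SWNT replicates 1 to 5. Replicate 6 was above and replicate 2 below every SWNT library, and the other 3 SWNT-SHP1i libraries lay inside the SWNT range. The fitted log2 fold change of ELN was 0.14 ± 0.27 (SE), with a 95% interval of -0.45 to 0.73. Without replicate 6 it was -0.077.

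Elastin counts were a visible part of each library. ELN alone took 0.704% to 1.73% of all counts in SWNT-SHP1i and 0.887% to 1.42% in SWNT.

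The fibrillins form the scaffold. FBN1 (chromosome 1, 123102009 to 123359649, plus strand, 66 exons) encodes the main fibrillin of adult microfibrils. It had 849, 633, 603, 648 and 82.4 CPM in SWNT-SHP1i replicates 1, 2, 3, 5 and 6, against 632, 440, 206, 455 and 479 CPM in SWNT replicates 1 to 5. Replicate 6 was the lowest of all libraries, and 3 SWNT-SHP1i libraries were above the highest SWNT library, though replicates 2 and 5 only narrowly. The highest library exceeded the lowest by 10.3-fold, the widest span of the set. FBN1 had a log2 fold change of 0.35 ± 0.47 (95% interval -0.68 to 1.38) with all libraries and 0.63 without replicate 6 (unadjusted p = 0.0349, adjusted p = 0.951, edgeR). With SWNT replicate 3, the lowest SWNT library, left out as well, it was 0.45, a setting chosen after seeing the data. Over the animals whose label numbers start with B9, which leaves out replicate 3 of both groups, it was 0.15.

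FBN2 (chromosome 2, 131152127 to 131370881, minus strand, 68 exons) had the highest fitted fold change of the set, close to that of FBLN2. By the difference of mean log2 CPM the order was reversed, with 0.49 for FBN2 and 0.78 for FBLN2, and FBLN2 was also ahead with limma-voom (0.90 against 0.58). The level of FBN2 was 24.3, 8.68, 23.0, 18.02 and 3.41 CPM in SWNT-SHP1i replicates 1, 2, 3, 5 and 6, against 11.2, 8.99, 6.74, 7.75 and 10.3 CPM in SWNT replicates 1 to 5. Replicates 1, 3 and 5 stood above every SWNT library, replicate 2 was among them and replicate 6 below them. FBN2 had a log2 fold change of 0.78 ± 0.44 (95% interval -0.17 to 1.74, adjusted p = 0.997), and 1.04 without replicate 6 (unadjusted p = 0.00353, adjusted p = 0.951, edgeR). Over the animals with B9 numbers it was 0.51. FBN2 counts were 82 to 955 in SWNT-SHP1i and 302 to 492 in SWNT libraries, the fewest of the set.

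Among the fibulins, FBLN2 was the gene with the smallest p. FBLN2 (chromosome 13, 70757265 to 70830388, minus strand, 19 exons) encodes fibulin-2, which binds tropoelastin and fibrillin. It had 306, 289, 244, 186 and 396 CPM in SWNT-SHP1i replicates 1, 2, 3, 5 and 6, against 273, 119, 198, 139 and 118 CPM in SWNT replicates 1 to 5. SWNT-SHP1i replicates 1, 2 and 6 were above every SWNT library, and none was below the lowest. The log2 fold change was 0.75 ± 0.28 (95% interval 0.13 to 1.36), a fold of 1.68, with an unadjusted p = 0.0212 and an adjusted p = 0.997. Its sign was the same in all 22 alternatives, which reuse the same libraries, with values of 0.60 to 0.99 when 1 library was left out. The unadjusted p in edgeR was 0.056, 0.0567 and 0.0553 without SWNT replicate 2, 4 or 5. It was under 0.05 with any other 1 library left out, and 0.0572 without SWNT-SHP1i replicates 3 and 6.

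The short fibulins FBLN5 and EFEMP2, which hand tropoelastin to the microfibril, gave small values. FBLN5 (chromosome 7, 113423632 to 113512198, minus strand) encodes fibulin-5. It had 744, 353, 599, 471 and 435.5 CPM in SWNT-SHP1i replicates 1, 2, 3, 5 and 6, against 523, 676, 365, 411 and 462 CPM in SWNT replicates 1 to 5. Highest and lowest library both belonged to SWNT-SHP1i, and the log2 fold change was 0.095 ± 0.24 (95% interval -0.44 to 0.63), and 0.15 without replicate 6.

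EFEMP2 (chromosome 2, 6450332 to 6463486, plus strand) encodes fibulin-4, which also binds lysyl oxidase. It had 275, 239.7, 260.5, 202 and 541 CPM in SWNT-SHP1i replicates 1, 2, 3, 5 and 6, against 236, 256, 308, 219.6 and 198 CPM in SWNT replicates 1 to 5. Apart from replicate 6 every SWNT-SHP1i library lay inside the SWNT range. With all libraries the log2 fold change was 0.32 ± 0.27, and without replicate 6 it was 0.004. EFEMP2 shares 22 exon bases with CTSW and 74 with MUS81 on the other strand, 0.84% and 2.82% of its exon bases, and the strand setting of the counting is not given in the sources used here.

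Of the cross-linking enzymes, LOX was above the SWNT range in 4 of 5 SWNT-SHP1i libraries and below it in the fifth. LOX (chromosome 2, 125591789 to 125607594, minus strand) encodes lysyl oxidase, the copper enzyme that oxidises lysines of tropoelastin and collagen. It had 726, 491, 591, 672 and 190.0 CPM in SWNT-SHP1i replicates 1, 2, 3, 5 and 6, against 469, 423, 293.5, 424 and 363 CPM in SWNT replicates 1 to 5. LOX had a log2 fold change of 0.44 ± 0.31 (95% interval -0.24 to 1.11, adjusted p = 0.997). Without replicate 6 it was 0.65 (unadjusted p = 0.00328, adjusted p = 0.951, edgeR). Without replicates 3 and 6 it was 0.68. Over the animals whose label numbers start with B9, which leaves out replicate 3 of both groups, it was 0.31.

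LOXL1 (chromosome 7, 59481412 to 59505149, minus strand) encodes the lysyl oxidase relative that renews elastin in adult mice. It had 312, 208, 259.5, 159 and 495 CPM in SWNT-SHP1i replicates 1, 2, 3, 5 and 6, against 236.5, 255, 214, 235 and 229 CPM in SWNT replicates 1 to 5. The SWNT libraries were tight, with 234 ± 14.8 CPM, and the SWNT-SHP1i libraries wide, with 287 ± 130 CPM (SD, n = 5 each). Of the SWNT-SHP1i libraries 3 were above and 2 below the SWNT range. LOXL1 had a log2 fold change of 0.29 ± 0.27, and 0.004 without replicate 6.

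The remaining mantle genes had fold changes near 0. MFAP4 (chromosome 12, 60137566 to 60144207, plus strand) had 2651, 1745, 2504, 1938 and 2999 CPM in SWNT-SHP1i replicates 1, 2, 3, 5 and 6, against 2343, 3036, 2698, 1863 and 2365 CPM in SWNT replicates 1 to 5. Its log2 fold change was -0.056 ± 0.21 (95% interval -0.52 to 0.41), the only negative one with all libraries, and -0.16 without replicate 6. Its span between libraries, 1.74-fold, was the narrowest of the set. It shares 72 exon bases with MAPK7 on the other strand.

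EMILIN1 (chromosome 3, 112031917 to 112046429, minus strand) encodes a glycoprotein at the border of elastin and microfibrils that restrains TGF-beta processing in mice. It had 248, 286.5, 244, 208 and 621 CPM in SWNT-SHP1i replicates 1, 2, 3, 5 and 6, against 266, 303, 282, 256 and 335 CPM in SWNT replicates 1 to 5. Replicate 6 was above every SWNT library, while replicates 1, 3 and 5 were below every one. The log2 fold change was 0.16 ± 0.29 with all libraries and -0.23 without replicate 6. It shares 32 exon bases with OST4 on the other strand.

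**Figure D3:**
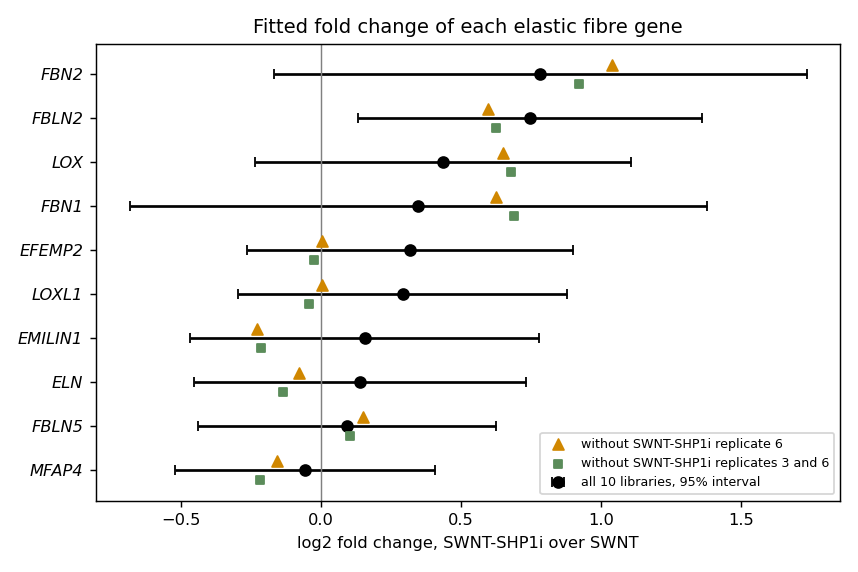
Fitted log2 fold change of SWNT-SHP1i over SWNT for each gene (circle, with its 95% interval), and the value without SWNT-SHP1i replicate 6 (triangle) and without SWNT-SHP1i replicates 3 and 6 (square). The interval includes 0 for all genes but FBLN2, and without replicate 6 LOX, FBN1 and FBN2 move to the right while ELN, LOXL1, EFEMP2 and EMILIN1 move to the left.

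In SWNT-SHP1i replicate 6 the 3 members with the longest exon models were low, and 6 of the 7 shorter ones were high. FBN1, FBN2 and LOX have exon models of 9638, 9569 and 8420 bases, while the other 7 have 2190 to 5266 bases. On the log2 CPM scale the 3 long genes were on average -1.73 from their mean over 10 libraries in replicate 6, and the 7 shorter genes 0.71 above theirs. FBLN5, among the shorter ones, was at -0.17. Over all genes in that library the median was also lower at greater exon length, but the bins did not match the members throughout. The 768 genes with over 8 kb of exon had a median of -0.71, and the 364 genes under 1 kb, a bin with no member, one of 0.70. Genes of 2 to 4 kb, the bin of 5 members, had a median of 0.11. Genes of 4 to 6 kb had a median of -0.39, while both members in that bin, FBLN2 at 0.91 and EMILIN1 at 1.09, were high. Among the other 9 libraries the median of the genes over 8 kb ran from -0.083 to 0.32, so none came near replicate 6. The part of transcript length in the members' levels was not tested.

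Some members lay at the edge of their own length bin. FBN1 in replicate 6 was at -2.38, above only 5.08% of the genes over 8 kb, and EMILIN1 was higher than 92.4% of the genes of 4 to 6 kb. SWNT replicate 3 also had low FBN1, LOX and FBN2, at -1.06, -0.57 and -0.64, and its genes over 8 kb had a median of -0.018. The part of exon length in these values was not tested.

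**Figure D4:**
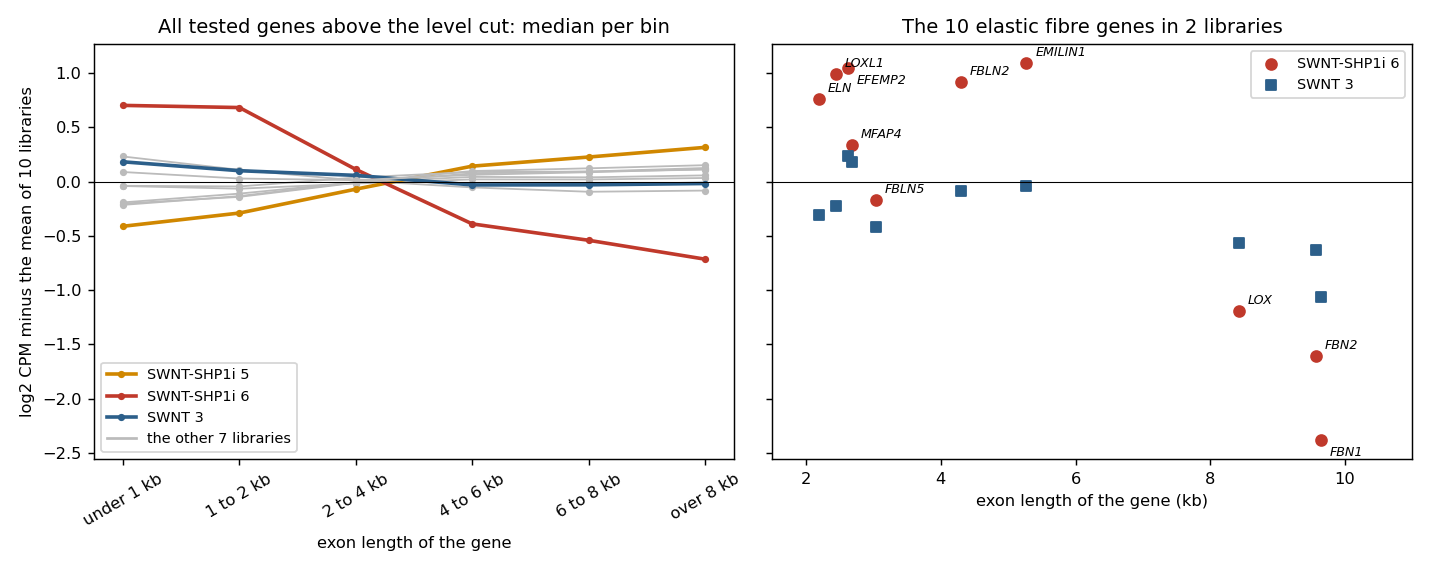
Left, the median over genes of log2 CPM minus the gene's mean over 10 libraries, in bins of exon length, with 1 line per library. Right, the same deviation for the 10 elastic fibre genes in SWNT-SHP1i replicate 6 and SWNT replicate 3 against exon length in kb. Replicate 6 runs from 0.70 in the shortest bin to -0.71 in the longest, and its LOX, FBN2 and FBN1 lie below -1.

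Ratios within a library do not depend on its scaling, and 4 of them were compared between the groups. They can still carry a dependence on exon length, since LOX and FBN1 have over 8 kb of exon and ELN 2190 bases. Genes over 8 kb had a median deviation of -0.715 in SWNT-SHP1i replicate 6 and 0.315 in replicate 5. Genes of 2 to 4 kb had 0.112 and -0.07 there. The part of exon length in these ratios was not tested. The LOX to ELN ratio, per exon length, was -6.58 ± 1.18 in SWNT-SHP1i and -6.82 ± 0.23 in SWNT (log2, mean ± SD, n = 5 each). The difference of 0.24 had a two-sided exact permutation p = 0.762, where the smallest p the design allows is 0.00794. In single libraries the log2 ratio was -6.22, -5.73, -6.34, -5.93 and -8.65 in SWNT-SHP1i replicates 1, 2, 3, 5 and 6, against -6.72, -7.04, -6.95, -6.46 and -6.93 in SWNT replicates 1 to 5. All SWNT-SHP1i libraries except replicate 6 were above every SWNT library. Without that library the difference was 0.76 (exact permutation p = 0.0159, adjusted p = 0.0635 over the 4 ratios), higher in 4 of 4 libraries. Leaving out the single exception separates the groups fully, so a small p follows from that choice and decides nothing by itself. With SWNT replicate 3 left out as well, chosen after seeing the data, the difference was 0.73 (exact permutation p = 0.0286, adjusted p = 0.114). The smallest p possible there is 0.0286. With replicate 6 kept and replicate 3 of both groups left out, the difference was 0.15 (exact permutation p = 0.914).

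The other 3 ratios did not pass with all libraries either. ELN to FBN1 was 6.90 ± 1.80 in SWNT-SHP1i and 6.92 ± 0.49 in SWNT (exact permutation p = 0.992), and without replicate 6 it differed by -0.81 (exact permutation p = 0.0397, adjusted p = 0.0794). With SWNT replicate 3 left out as well the difference was -0.63 (exact permutation p = 0.0571, adjusted p = 0.114). FBLN5 to EFEMP2 was 0.61 ± 0.71 in SWNT-SHP1i and 0.77 ± 0.45 in SWNT (exact permutation p = 0.698). FBN2 to FBN1 was -5.14 ± 0.63 in SWNT-SHP1i and -5.54 ± 0.38 in SWNT (exact permutation p = 0.246). Adjusted over the 4 ratios, all p-values with every library were 0.984 or higher.

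Across the 10 libraries some of the genes varied together. Of 45 pairs, 6 had a Pearson correlation of log2 CPM that passed Benjamini-Hochberg adjustment and 1 of these also passed by Spearman's rho. That pair was FBN1 and LOX, with r = 0.938 (permutation p = 6e-05, adjusted p = 0.00247) and rho = 0.927 (permutation p = 0.00034, adjusted p = 0.0153). Without SWNT-SHP1i replicate 6 and SWNT replicate 3, the 2 libraries farthest out in FBN1, r was 0.849. With each group centred on its own mean it was 0.966.

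FBN2 went with both, at r = 0.930 with LOX (permutation p = 0.00011, adjusted p = 0.00247, rho = 0.842, permutation p = 0.00348, adjusted p = 0.0562) and r = 0.847 with FBN1 (permutation p = 0.00035, adjusted p = 0.00525, rho = 0.806, permutation p = 0.0078, adjusted p = 0.0702). Without the 2 libraries farthest out these were 0.820 and 0.729. These 3 genes share a long exon model. LOX and EMILIN1 ran opposite ways, with r = -0.871 (permutation p = 0.00137, adjusted p = 0.0154), rho = -0.818 (permutation p = 0.00601, adjusted p = 0.0676) and r = -0.741 without the 2 libraries farthest out. FBN2 and EMILIN1 had r = -0.790 (permutation p = 0.00477, adjusted p = 0.0358), rho = -0.673 (permutation p = 0.0389, adjusted p = 0.178) and r = -0.598 without the 2 libraries farthest out.

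ELN and its cross-linker LOX had r = -0.321 across animals (permutation p = 0.363, adjusted p = 0.495) and rho = -0.115 (permutation p = 0.759, adjusted p = 0.899), and r = 0.468 without SWNT-SHP1i replicates 2 and 6. ELN and MFAP4 had r = 0.791 (permutation p = 0.0046, adjusted p = 0.0358), although rho was 0.697 (permutation p = 0.0312, adjusted p = 0.176). Without the same 2 libraries the ELN and MFAP4 correlation was 0.594.

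FBLN2 was lower in libraries with more contractile smooth muscle RNA. Against the mean log2 CPM of 15 smooth muscle markers it had r = -0.783 (permutation p = 0.00177, adjusted p = 0.0354 over 20 relations) and rho = -0.879 (permutation p = 0.00154, adjusted p = 0.0308). Without SWNT-SHP1i replicate 6 and SWNT replicate 2, r was -0.680, and within groups it was -0.651. Against the mean of 15 adventitial fibroblast markers FBLN2 had r = 0.780 (permutation p = 0.0102, adjusted p = 0.0679), rho = 0.818 (permutation p = 0.00601, adjusted p = 0.0601), 0.889 without SWNT replicates 3 and 5, and 0.564 within groups. Of the 20 relations with markers, that of FBLN2 with smooth muscle was the single one to pass. A negative relation with smooth muscle was not particular to FBLN2. LOXL1 had r = -0.843 (permutation p = 0.00857, adjusted p = 0.0679), rho = -0.564 and -0.895 within groups. EFEMP2 had r = -0.841 (permutation p = 0.0195, adjusted p = 0.0976), rho = -0.588 and -0.854 within groups.

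**Figure D5:**
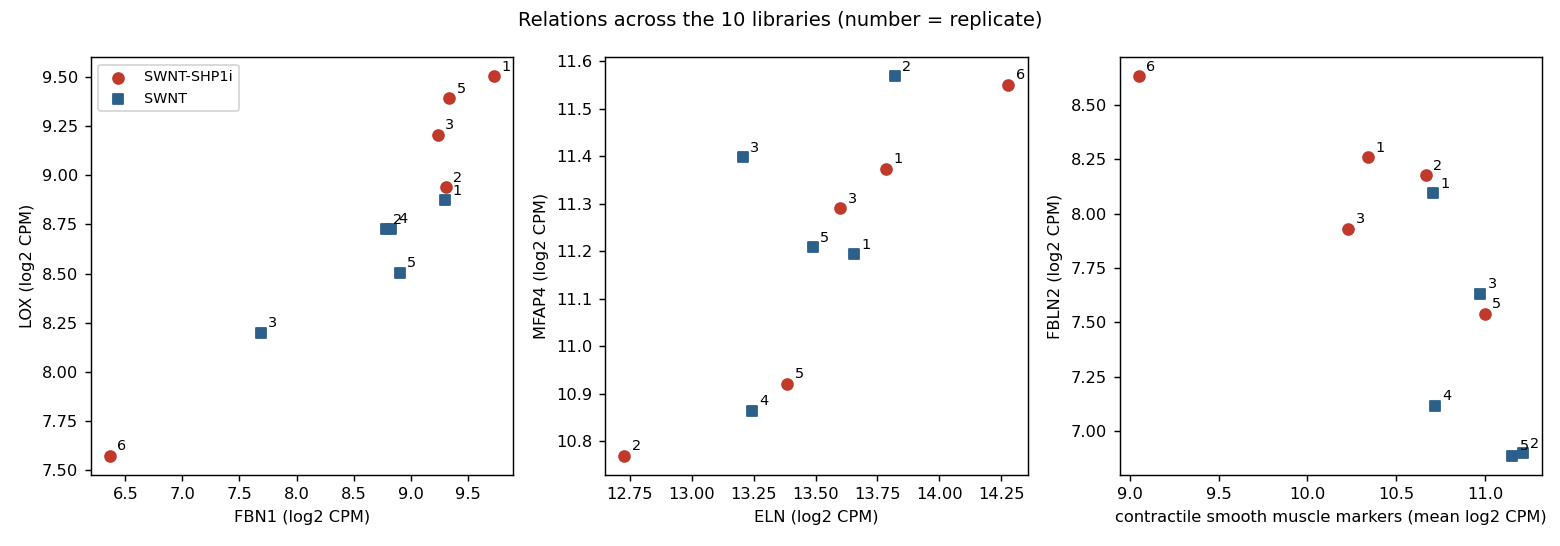
Log2 CPM in the 10 libraries (circles SWNT-SHP1i, squares SWNT, replicate numbers beside the points) of LOX against FBN1, MFAP4 against ELN, and FBLN2 against the mean of the smooth muscle markers. LOX climbs with FBN1 (r = 0.938) over all animals, and SWNT-SHP1i replicate 6 is at an end of all 3 plots.

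Cell type markers were counted in the same fit. All 15 tested smooth muscle markers had negative log2 fold changes (median -0.56), and 14 of 15 tested fibroblast markers had positive ones (median 0.48), with 0 called in either list. Without replicate 6 the smooth muscle markers had 2 positive values and a median of -0.34, and the fibroblast markers 14 and a median of 0.59. The fibroblast sum was 32343 to 59770 TPM in SWNT-SHP1i and 20512 to 50251 TPM in SWNT, and none of these markers was at 0. All 14 tested macrophage markers were also positive, with a median of 1.45 and a sum of 651 to 3368 TPM in SWNT-SHP1i against 572 to 2010.2 TPM in SWNT. Without replicate 6 the macrophage median was 0.80 with 13 of 14 positive, and LYZ, the negative one, was at -0.61. The part of these markers in the FBLN2 values was not tested. Endothelial markers were positive in 8 of 12, Schwann cell and nerve markers in 0 of 9, adipocyte markers in 3 of 8, skeletal muscle markers in 4 of 4, cartilage markers in 2 of 6 and lymphocyte markers in 4 of 10 tested, again with 0 called. Without replicate 6 the endothelial count was 5, the adipocyte count 2, the cartilage count 1 and the lymphocyte count 3.

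Companion genes of the elastic fibre were read in the same fit, and 0 of them passed over all genes. One list held microfibril and elastic fibre components outside the set, with general matrix proteins among them. Of its 22 tested genes, 14 had positive log2 fold changes, with a median of 0.23 against 0.006 for all genes. Without replicate 6 the median was 0.11 with 15 positive. Smallest in p were VCAN, the proteoglycan versican that binds fibrillin, at 1.64 ± 0.47 (SE), EMILIN2, a relative of EMILIN1, at 0.97 ± 0.31, and VTN, the adhesive glycoprotein vitronectin, at -0.70 ± 0.24. EMILIN2 stood at 7.56 ± 0.45 log2 CPM in SWNT-SHP1i and 6.54 ± 0.58 in SWNT (SD, n = 5 each), and its fold change was 0.82 without replicate 6.

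Cross-linking and processing genes had positive fold changes in 14 of 18 (median 0.43), and without replicate 6 in 16 of 18 (median 0.17). FKBP10, a collagen chaperone that also binds tropoelastin, had 0.86 ± 0.32, PCOLCE, an enhancer of procollagen processing, 0.68 ± 0.27, and CTSA, the lysosomal protective protein of the elastin-binding complex, 0.91 ± 0.43. Without replicate 6 these 3 were 0.41, 0.43 and 0.18. Of 10 listed genes of the ADAMTS and ADAMTS-like family, some of whose products bind microfibrils, 6 were positive (median 0.21). PAPLN had 0.86 ± 0.33, ADAMTSL5 0.81 ± 0.39 and ADAMTS17 0.74 ± 0.39.

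Enzymes that can cleave elastin had positive fold changes in 11 of 11 tested genes, with a median of 0.80, where 50.8% of all genes were positive. Without replicate 6 the count was 10 of 11, with PRTN3 at -0.45, and the median 0.32. At an unadjusted p under 0.05, 5 of the 11 were higher with all libraries, against 3.49% of all genes. Such counts were not particular to these enzymes. By the same measure 12 of 14 macrophage and 6 of 15 fibroblast markers were higher and 0 lower. Of the smooth muscle markers 5 of 15 were lower and 0 higher. The gelatinase MMP9 had 5.54 ± 1.79 and the lysosomal cathepsins CTSL and CTSS had 1.81 ± 0.68 and 1.21 ± 0.47. Without replicate 6 MMP9 was 1.23, CTSL 1.22 and CTSS 0.67. Macrophages make MMP9 and both cathepsins, and the macrophage marker sum was highest in replicate 6 too. Its part in these values was not tested. MMP9 had 221 CPM in replicate 6 and 0.12 to 6.30 CPM in the other SWNT-SHP1i libraries, against 0.059 to 2.46 CPM in SWNT. The other 2 at that threshold, named after their values were seen, were MMP2 with 0.95 and CTSB with 0.80, and without replicate 6 these were 0.42 and 0.32.

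Inhibitors of these enzymes were split, 4 of 8 positive with a median of 0.11, and 0.016 without replicate 6. SLPI, an inhibitor of serine elastases, had -0.60 ± 0.26, while CSTB, an inhibitor of cathepsins, had 1.42 ± 0.69 and TIMP1, an inhibitor of matrix metalloproteinases, 1.02 ± 0.50. CSTB was -0.045 and TIMP1 0.23 without replicate 6.

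Among 17 genes of TGF-beta signalling, which microfibrils hold latent, 9 were positive and the median was 0.007, and without replicate 6 it was -0.038 with 8 positive. The ligand TGFB3 had -0.70 ± 0.26, at 7.77 ± 0.55 log2 CPM in SWNT-SHP1i and 8.53 ± 0.28 in SWNT (SD, n = 5 each). TGFBI, a secreted TGF-beta target, had 0.59 ± 0.28 and the co-receptor ENG 0.998 ± 0.48. Without replicate 6 TGFBI was 0.37 and ENG 0.28. Integrins that bind fibrillin, fibulin-5 or EMILIN1 had 4 of 9 positive, a median of -0.007 and 0 genes at an unadjusted p under 0.05 in edgeR. Without replicate 6 the median was 0.043 with 6 positive. ITGB5 came first with -0.36 ± 0.17, then ITGB3 with 0.57 ± 0.32 and ITGA4 with 0.34 ± 0.35.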

How the data were processed

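RNA of carotid artery was purified with poly-T beads, per the labels' protocols, and the authors deposited whole read counts per gene without normalization, as the values of the table show. Per the submitters' processing notes, the tools included STAR, Trim Galore and DESeq2, and the build was Sscrofa11.1. No source used here gives tool versions, the read counter, its strand handling or the gene annotation. Exon lengths come from the same table, per the file headers.

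Columns were matched to animals by the names in the labels. Replicates are numbered in accession order and pair no animals. The lowest median chi-square per gene between 2 libraries was 5.9, where sampling noise gives 0.45, so all 10 were kept. The filter filterByExpr (minimum count 10) passed 15930 genes. Counts were scaled by TMM and tested with edgeR 4.0.16 (robust quasi-likelihood, R 4.3.3), Benjamini-Hochberg adjusted over all genes, threshold 0.05. The SE is the absolute log2 fold change over the square root of F. Levels are CPM, log2 CPM with a prior count of 2, or TPM from exon length. Ratios used a prior count of 0.5 and an exact permutation test, and correlations 100000 resamples in scipy 1.17.1. Length bins took genes over 3 log2 CPM. The procedure was tested on simulated data. DESeq2 1.42.0 and limma 3.58.1 served as alternatives. Counts are reads, not molecules.

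The genes and lists were chosen with earlier results of these data known. Named genes are the 10 members and, from each companion list, the 3 with the smallest p. In the lists, 11 symbols had no row and were not used. No sequences are shown.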

Additional observations from a re-analysis of the deposited data

Results flagged for a closer look

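SWNT-SHP1i replicate 6 lay far from the other libraries of its group in 3 of the 28 groups of values checked, where chance alone marks about 1 group in 20. FBN1 was at 6.36 log2 CPM there, with the other 4 SWNT-SHP1i libraries between 9.24 and 9.73. The log2 ratio of LOX to ELN was -8.65, with the others between -6.34 and -5.73. The log2 ratio of ELN to FBN1 was 10.05, with the others between 5.56 and 6.50. These 3 are not independent, since they come from 1 library and share FBN1 or ELN, so their number cannot be judged against that rate.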

How the results depend on the processing

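At a threshold of 0.05 the number of genes called was 0 under every alternative run, with 421 to 1668 at an unadjusted p under 0.05. Scaling (RLE, upper quartile), the filter (none, stricter), the tool (DESeq2, limma-voom, edgeR without robust fitting), animal numbers (B9 as a term, B9 alone), the gene universe (no globin or mitochondrial genes) and the libraries were varied. At a threshold of 0.1 DESeq2 called 16 genes, limma-voom 1 and edgeR 0. FBN1, FBN2, FBLN2 and LOX kept a positive sign throughout. With limma-voom ELN was -0.31, FBLN5 -0.085, LOXL1 -0.028 and EMILIN1 -0.17. Without SWNT-SHP1i replicates 3 and 6 ELN was -0.14, EFEMP2 -0.023, LOXL1 -0.043, EMILIN1 -0.21 and the FBLN5 to EFEMP2 difference 0.089. Without SWNT-SHP1i replicate 6 and SWNT replicate 3 together, chosen after seeing the data, ELN was -0.14, LOXL1 -0.029 and EMILIN1 -0.23. Over the animals with B9 numbers FBLN5 was -0.048 and the ELN to FBN1 difference 0.26. With 1 library left out ELN ran from -0.077 to 0.30, FBLN5 from -0.08 to 0.24, MFAP4 from -0.16 to 0.034, EMILIN1 from -0.23 to 0.28, the ELN to FBN1 difference from -0.81 to 0.31 and the FBLN5 to EFEMP2 difference from -0.35 to 0.12. The cause of these sign changes was not tested. No paired analysis was possible because replicate numbers follow accession order and the labels pair no animals. With 5 animals a group, the 95% interval of a member's log2 fold change included 0 for all but FBLN2, and the part of depth was not tested.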
